A study of Homo sapiens with 12 samples.

Results

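The steady state transcriptome of SKBR3 cells kept in vehicle was read from 3 libraries of DMSO-treated cells, out of 12 in the series, and was described across genes by level. The study as a whole put SKBR3 cells in 4 groups of 3 libraries. Wild-type cells were kept in DMSO throughout, or in DMSO with 100 nM lapatinib for the last 24 h, or in 5 µM GSK126 alone or with the same lapatinib. Lapatinib is a kinase inhibitor of EGFR and HER2, and GSK126 inhibits the methyltransferase EZH2. No drug group enters the results, and with 1 group there is no contrast and no test: levels are given by library, as mean ± SD over the 3 libraries, and a gene is taken as higher than another where their 3 values do not overlap. Whether separate cultures stood behind the libraries is not given in the labels, so the SD may be partly technical. SKBR3 is 1 established line, and its levels describe this line in culture.

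SKBR3 is a breast cancer line with an amplified ERBB2 gene and is widely used as a model of HER2-positive disease. ERBB2 encodes HER2, a receptor tyrosine kinase that has no known ligand and signals as a dimer with itself or with EGFR, HER3 or HER4. Its main partner HER3 (ERBB3) has little kinase activity and passes the signal to phosphoinositide 3-kinase through its phosphorylated tail. In the breast, luminal cells line the ducts and make keratins 8, 18 and 19, while basal cells lie beneath them and make keratins 5 and 14. Breast tumours with HER2 amplification usually lack a basal programme, and often lack the oestrogen and progesterone receptors.

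Levels are on 3 scales. The deposited value is a normalized count, the reads of a gene divided by a size factor of the library. The share of reads is taken over all gene reads of the library. TPM, a level per transcript length scaled to the same total in each library, was computed here from the reads and the transcript length, and it is the scale on which genes are compared with each other. The marker genes of the labelled cell type are given first, as normalized counts, which grow with transcript length. ERBB2 was read at 143494, 166912 and 152454 normalized counts in DMSO libraries 1, 2 and 3. GRB7, an adaptor protein gene that lies 2 places from ERBB2, stood at 16258, 14799 and 13539.5. The paired luminal keratins KRT8 and KRT18 stood at 212769, 167445 and 175646 and at 140933, 95676 and 112117. SPDEF, an ETS factor of secretory luminal cells, stood at 15154, 11959.9 and 12026. Each of the 5 was above 10000 in every library, a level that 2.08% of the 22170 genes reached by their mean. The values go with the label but do not identify the line, since no other line was compared. The 5 also belong to lists chosen with earlier results of these data known.

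Depth was even across the 3 libraries, with 25.4, 26.8 and 26.2 M gene reads. Spike-in transcripts, an external standard, took another 0.588% to 0.745% of the reads. In all, 14080 genes (63.5%) had a read in every DMSO library, 1387 in 2 libraries, 1705 in 1 library and 4998 (22.5%) in none. The 3 libraries were close to each other across genes (Pearson r of log2 values from 0.983 to 0.988, a description across genes, which are not independent). They differed by transcript length: among coding genes with a mean of at least 50, DMSO 1 exceeded DMSO 2 by a median of 0.62 (log2) for transcripts under 1 kb and was below it by 0.20 for those over 8 kb. By GC content the same difference ran from -0.14 under 40% GC to 0.23 above 60%. DMSO 1 against DMSO 3 differed more, from -0.23 to 0.33 in the same bins. DMSO 3 against DMSO 2 ran the other way, from 0.13 to -0.11. Short and GC-rich transcripts therefore read higher in DMSO 1 than in DMSO 2, and the part of this in any single gene was not tested.

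**Figure D1:**
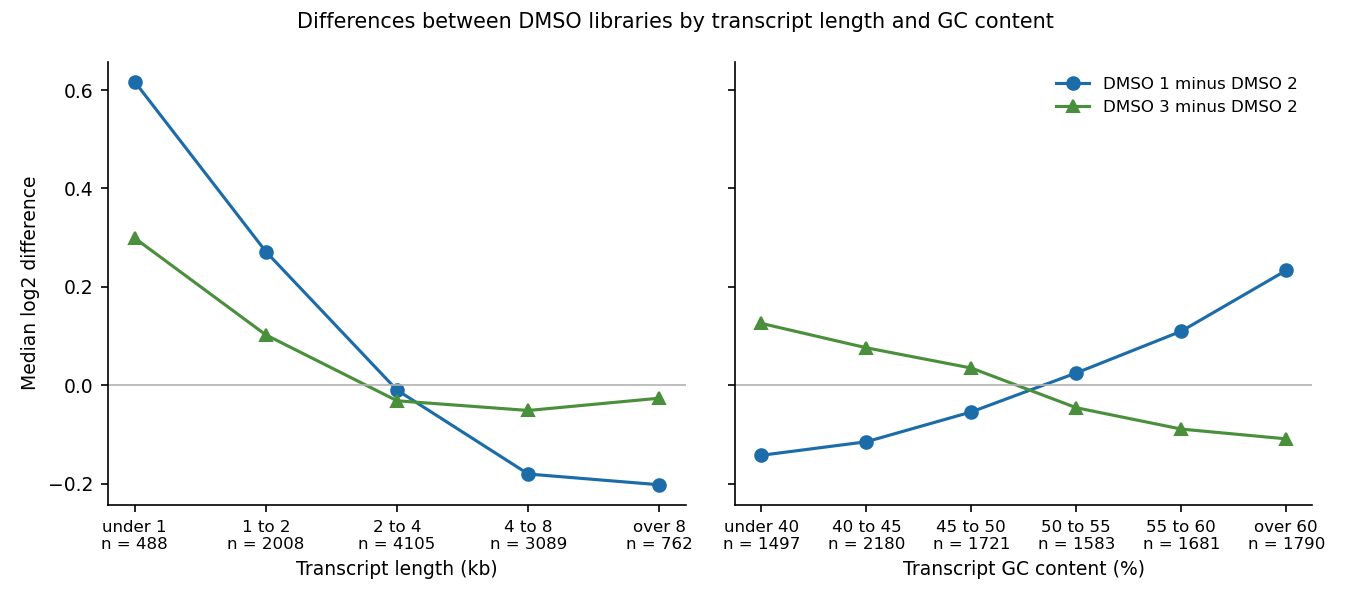
Median log2 difference between DMSO libraries (vertical axis) for coding genes with a mean of at least 50, by transcript length in kb (left) and by transcript GC content in percent (right), with n genes under each bin. The difference of DMSO 1 from DMSO 2 falls from 0.62 for the shortest transcripts to -0.20 for the longest, and DMSO 3 lies between the other libraries for the shortest. By GC content the differences of DMSO 1 and of DMSO 3 from DMSO 2 run in opposite directions.

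Sequences of genes that the levels turn on are shown from RefSeq on GRCh38.p14, where the table's start lies within 20 bases of the start of the transcript used for the length. RPL19, a protein of the large ribosomal subunit whose gene lies 11 places from ERBB2, had the highest level per length of all genes, and SPDEF is the one marker whose start met that condition. Each window holds the 250 bases before the start with every CG dinucleotide in capitals.
RPL19, chr17:39200033-39200282, plus strand: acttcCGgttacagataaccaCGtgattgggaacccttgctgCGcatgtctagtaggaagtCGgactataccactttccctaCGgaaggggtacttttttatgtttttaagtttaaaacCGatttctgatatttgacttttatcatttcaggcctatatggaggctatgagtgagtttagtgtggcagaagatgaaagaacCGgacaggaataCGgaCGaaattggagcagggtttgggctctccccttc
SPDEF, chr6:34556330-34556579, minus strand: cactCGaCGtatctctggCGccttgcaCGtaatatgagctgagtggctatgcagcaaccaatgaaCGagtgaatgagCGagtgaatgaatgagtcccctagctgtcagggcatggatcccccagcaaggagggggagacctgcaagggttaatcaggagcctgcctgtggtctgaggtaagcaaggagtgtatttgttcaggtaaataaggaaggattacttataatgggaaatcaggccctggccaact
The CG dinucleotide was searched on 1 strand, since it reads the same on the other. The window of RPL19 held 9 at a GC content of 44.0%, and 54.1% of the 35116 promoter windows in the RefSeq table held as many or more. For SPDEF the count was 6 at 50.8% GC, and 61.9% of windows held as many or more. The median over all windows was 11, so neither window was rich in CG, although the level of RPL19 was the highest. The letters TATAAA, searched on the given strand only, were in the last 50 bases of neither window and in 2.63% of all windows.

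The microRNA gene MIR4728 lies inside ERBB2, and its mature forms are shown because the hairpin's host is the receptor gene that names this disease. The seed, bases 2 to 8, is in capitals, and the arms have different seeds.
hsa-miR-4728-5p, chr17:39726496-39726518, plus strand: uGGGAGGGgagaggcagcaagca
hsa-miR-4728-3p, chr17:39726537-39726561, plus strand: cAUGCUGAccucccuccugccccag
In these libraries, made from polyadenylated RNA, 419, 140 and 214 reads were assigned to MIR4728, or 514, 138 and 228 normalized counts. Such reads come from long RNA across the hairpin and do not measure the mature forms, and without strand or exon information they cannot be told apart from reads of ERBB2 itself. DMSO 1 was highest for MIR4728 and lowest for ERBB2.

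Reads were concentrated in few genes. The 10 genes highest by mean took 9.44% ± 0.82 of the gene reads, with 10.3% in DMSO 1, 8.69% in DMSO 2 and 9.31% in DMSO 3. The 100 highest took 25.7% ± 1.87, and 599 ± 76.1 genes held the first 50% of reads. By class, 461 genes with a mean of at least 10000 held 45.5% ± 2.28 of reads, and 4527 genes between 1000 and 10000 held another 46.0% ± 1.43. A further 5056 genes between 100 and 1000 held 8.06% ± 0.82. The 7128 remaining genes with any read held the rest, 0.44% of reads.

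**Figure D2:**
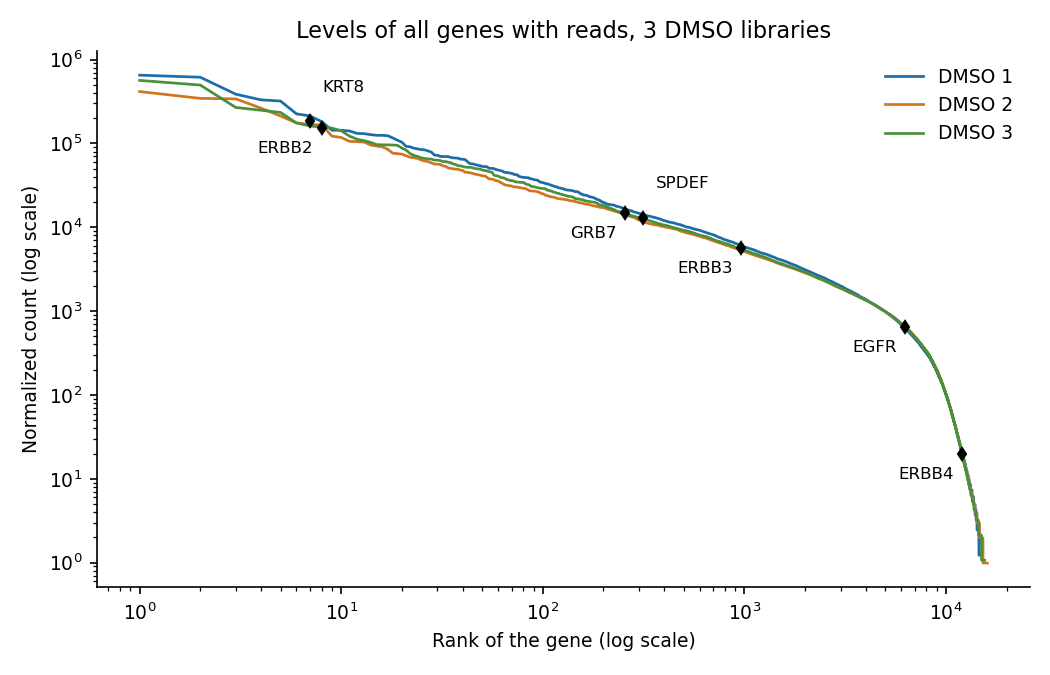
Normalized count of every gene with reads (vertical axis, log scale) against its rank (horizontal axis, log scale), with a line for each of the 3 DMSO libraries. Diamonds mark the mean of named genes at their rank by mean: ERBB2 is at rank 8, GRB7 at 256, ERBB3 lower, EGFR at 6264 and ERBB4 lowest.

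By normalized count the highest gene was MALAT1, a nuclear noncoding RNA, at 652648, 340204 and 565012. Its value in DMSO 2 was the lowest and lay apart from the other libraries. RPL19 followed at 616247, 415854 and 496924, and both overlapped. H19, an imprinted noncoding RNA that most adult tissues silence, came next at 386648, 344828 and 234356, lowest in DMSO 3. The glycolytic enzyme gene GAPDH stood at 287839 ± 37682 and the luminal keratin KRT19 at 260455 ± 55024. DHRS2, a short-chain dehydrogenase, reached 187496 ± 33484 and overlapped KRT8 at 185287 ± 24151. ERBB2 was the eighth gene at 154286 ± 11816. Of all reads, 0.460%, 0.631% and 0.546% fell in ERBB2, or 0.546% ± 0.085. No other receptor gene was among the 25 highest.

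The other genes among the 25 highest by normalized count fell into a few kinds. Chaperone and cytoskeleton genes were HSP90AA1 (148115), whose protein keeps HER2 and other kinases folded, and ACTB (114536). Metabolic genes were ALDOA (114426) and ENO1 (101419) of glycolysis, FASN (95547), the fatty acid synthase, and NDUFB9 (99242), a subunit of respiratory complex I. KRT18 (116242) and KRT7 (107729) completed the luminal keratins. S100A6 (96934), a calcium-binding protein gene, and CTSD (94245), a lysosomal protease secreted by breast cancers, were of similar level. Ribosomal proteins made up the rest, among them RPL7 (130367), RPL8 (100132), RPS14 (98914), RPS24 (74342), RPS18 (72035) and RPS3 (67928).

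Per length, short transcripts moved up. RPL19 stood at 48193, 42609 and 45741 TPM, and its lowest library was above the highest library of the next gene, KRT19, at 13289.9, 11542 and 12124. GAPDH came next at 10173 ± 446, then S100A6 at 9417 ± 1313, NDUFB9 at 9147 ± 995 and H19 at 9117 ± 2184, which overlapped each other. RPS21, RPL7, RPS18 and RPS24 lay between 7693 and 8039. DHRS2 at 7274 ± 739.7, the actin-binding thymosin TMSB10 at 6642 ± 1243, RPS16 at 6468 ± 923, MALAT1 at 6344 ± 1329.7 and RPL8 at 6281 ± 921 completed the first 15. ERBB2 was at rank 54 on this scale. Ribosomal protein genes have many near-identical processed copies in the genome, and how reads that match several places were counted is not stated, so their single values are uncertain.

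As a group, the 80 ribosomal protein genes took 10.99% ± 1.55 of reads and 21.8% ± 2.07 of TPM. Their share of reads was 12.5%, 9.38% and 11.1% in DMSO 1, 2 and 3, the same order as the length difference between libraries above. RPL19 alone held 1.78% ± 0.20 of reads. Among housekeeping genes all 20 were above 100 normalized counts in every library, against 44.0% of all genes and 52.9% of coding genes. The translation factor EEF1A1 stood at 909 ± 195 TPM on a transcript of 4.44 kb, and the chaperone HSPA8 at 1666 ± 307 on 2.46 kb. By normalized count they overlapped, with means of 59856 and 60962, so their order depends on the lengths used. GUSB (159 ± 19.4), HPRT1 (48.6 ± 13.1) and TBP (14.5 ± 3.44), often used as reference genes, were far lower and did not overlap each other. ERBB2 per length was 160 ± 19.8 times TBP.

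The 4 ERBB receptors were far apart in level and did not overlap each other. ERBB2 stood at 1819.7, 2773 and 2276 TPM, lowest in DMSO 1 and highest in DMSO 2, the order seen for long transcripts. ERBB3 was even, at 59.8, 63.4 and 65.1. EGFR, the receptor of EGF, was at 2.50, 6.59 and 4.51, again with DMSO 2 highest. ERBB4, a neuregulin receptor of luminal differentiation, was at 0.0466, 0.184 and 0.107, from 8, 30 and 18 reads. Within a library the level of ERBB2 per kilobase was 30.4, 43.8 and 34.9 times that of ERBB3 (36.4 ± 6.79) and 551 ± 160 times that of EGFR. ERBB3 was in turn 16.0 ± 7.31 times EGFR.

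Ligands of these receptors were scarce. Of 11 genes, 1 was above 100 normalized counts in every library (9.09%, against 44.0% of all genes and 52.9% of coding genes). The median was 0.226 TPM, against 2.01 over all genes and 3.41 over coding genes. Epigen (EPGN), a low-affinity EGFR ligand, stood at 4.31, 4.62 and 6.48 TPM and EGF itself at 2.75, 5.06 and 4.64, and these overlapped. NRG2, a neuregulin that binds HER3 and HER4, was at 2.43, 2.04 and 2.12, below both. The heparin-binding ligand HBEGF was at 0.651, 1.69 and 1.03 and betacellulin (BTC) at 0.652, 0.238 and 0.386, from 110 and 50 reads in all. NRG4 and amphiregulin (AREG) had 11 and 6 reads over the 3 libraries. TGFA, EREG, NRG1 and NRG3 had no read in any DMSO library. Over the 78.4 M gene reads, 0 reads allow a level of up to 0.0383 reads per M gene reads (3 reads over the 3 libraries, counting error only). NRG1 encodes the classical ligand of HER3.

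**Figure D3:**
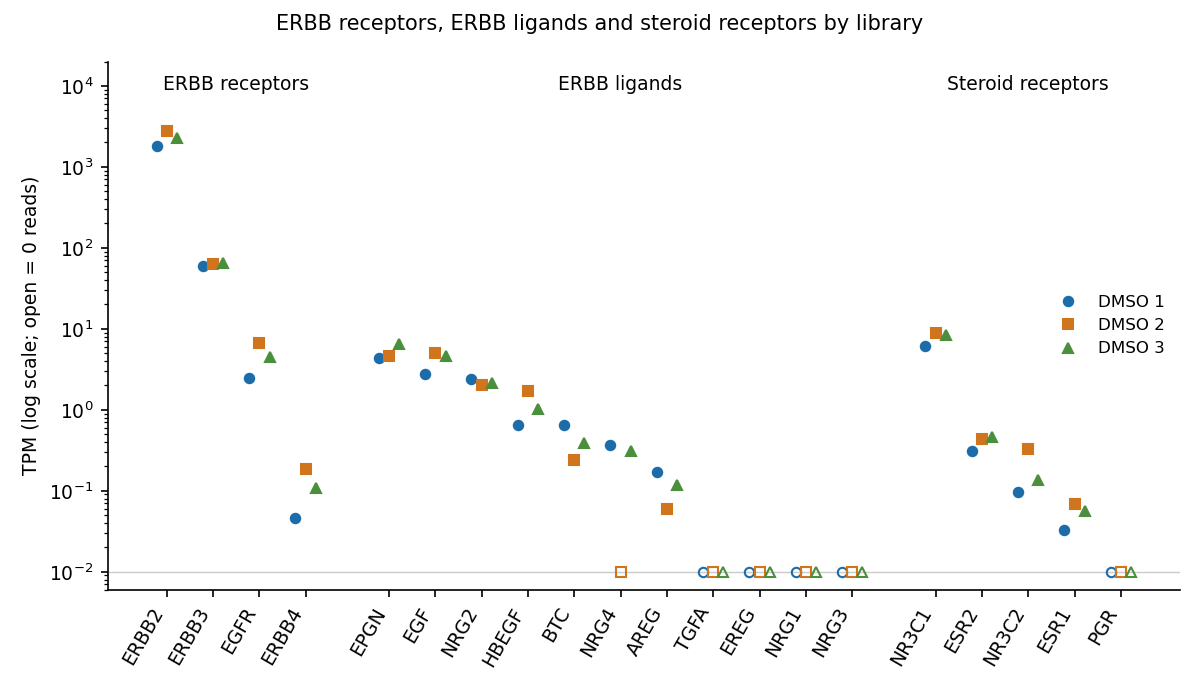
TPM (vertical axis, log scale) in each DMSO library for the ERBB receptors, the ERBB ligands and 5 steroid receptors, with 1 symbol per library. Open symbols at the bottom are libraries with 0 reads: ERBB2 is the only gene shown above 1000 TPM, while TGFA, EREG, NRG1, NRG3 and PGR are open in all libraries.

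Among 54 other receptor tyrosine kinase genes, 18 (33.3%) were above 100 normalized counts in every library and 11 had no read. The shares were 44.0% and 22.5% of all genes, and 52.9% and 17.7% of coding genes. DDR1, a collagen receptor of epithelia, was highest at 100.4, 189 and 116 TPM, with DMSO 2 far above the others. FGFR4 followed at 51.5 ± 7.74, then the ephrin receptors EPHB6 at 39.9 ± 3.08, EPHB4 at 36.7 ± 6.48 and EPHB3 at 33.4 ± 3.95, whose libraries overlapped. RYK (29.6), FGFR2 (13.97), TYRO3 (13.5), MST1R (12.5), FGFR3 (12.2) and EPHA2 (11.7) came next. MET, the receptor of hepatocyte growth factor, stood at 8.83 ± 1.62, the insulin receptor INSR at 4.08 ± 0.796 and IGF1R at 2.37 ± 0.846. AXL, KIT and PDGFRA, receptors of mesenchymal or other lineages, had 32, 6 and 3 reads in all. The genes with no read were EPHA3, EPHA5, EPHA6, EPHA7, EPHB1, FLT3, TIE1, ROR2, MUSK, ROS1 and ALK. Within a library the ratio of ERBB2 to the summed TPM of all these genes and the other 3 ERBB receptors was 4.17, 4.40 and 4.76 (4.45 ± 0.30).

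The signalling chain below HER2 was present almost throughout, with 30 of 35 genes (85.7%) above 100 in every library, against 44.0% of all genes and 52.9% of coding genes, and a median of 14.3 TPM. GRB7 was the highest member at 418, 498 and 409.5 TPM, and ERBB2 was 5.16 ± 0.70 times as high per length. HRAS, a RAS GTPase, stood at 322 ± 34.2, the kinase MAP2K2 (MEK2) at 209 ± 22.5 and AKT1 at 125 ± 34.6. NRAS was at 14.6 ± 1.80. AKT2 was at 43.5 ± 12.1. Paralogs were unequal. Of the regulatory subunits of phosphoinositide 3-kinase, PIK3R3 was at 55.2 ± 10.97, PIK3R2 at 30.5 ± 9.79 and PIK3R1 at 1.55 ± 0.577. PIK3CB at 9.51 ± 1.80 exceeded PIK3CA at 0.998 ± 0.306, both catalytic subunits, in every library. The insulin receptor substrate IRS2 had 19 reads and IRS1 stood at 0.732 ± 0.266. PIK3R3 overlaps an annotated read-through gene not in the table, so its value may include shared reads.

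Among 48 nuclear receptors, 21 (43.8%) were above 100 in every library, close to the 44.0% of all genes and below the 52.9% of coding genes. No read was found for 10 of the 48, against 22.5% of all genes and 17.7% of coding genes. The orphan receptor NR2F6 was highest at 207, 229 and 195 TPM, above ESRRA, an oestrogen-related orphan receptor, at 100.1, 135 and 81.6. RARA, the retinoic acid receptor whose gene lies 19 places from ERBB2, stood at 94.2 ± 28.5 and overlapped ESRRA. NR1H2, the liver X receptor beta, was at 65.8 ± 12.4, RXRA at 65.1 ± 12.5 and the vitamin D receptor VDR at 37.5 ± 2.89. Among steroid receptors the glucocorticoid receptor NR3C1 was at 6.13, 8.96 and 8.39, lowest in DMSO 1. ESR1, the oestrogen receptor alpha, had 3, 6 and 5 reads, or 0.0527 ± 0.0185 TPM, and ESR2 was at 0.400 ± 0.0800. PGR, the progesterone receptor, had no read. The other genes at 0 were RXRG, RORB, NR1H4, NR1I2, NR2E1, NR5A1, NR5A2, NR0B1 and NR0B2.

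Genes around ERBB2 on chromosome 17 are often amplified with it. Their order was taken from the starts of coding genes in RefSeq, and levels are normalized counts. On the side of MED1 the first 10 neighbours were PGAP3, PNMT, TCAP, STARD3, PPP1R1B, NEUROD2, CDK12, MED1, FBXL20 and STAC2. PGAP3, a remodeller of lipid anchors, stood at 5972, 5362 and 4542. PNMT, which makes adrenaline, was at 173 ± 65.9, and TCAP, a muscle sarcomere gene, at 698 ± 283, both highest in DMSO 1. STARD3, a cholesterol transporter of endosomes, was at 17265, 15579 and 14694. PPP1R1B, a phosphatase inhibitor of neurons, was at 729 ± 52.7, and NEUROD2, a neuronal factor, had 5 reads. The transcriptional kinase CDK12 was at 12815, 17954 and 15289.9 and the mediator subunit MED1 at 12971, 13476 and 13911. FBXL20 was at 3471 ± 51.0 and STAC2 at 258 ± 60.4, and one place beyond lay RPL19.

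On the other side the first 10 were MIEN1, GRB7, IKZF3, ZPBP2, GSDMB, ORMDL3, LRRC3C, GSDMA, PSMD3 and CSF3. MIEN1, a small membrane-anchored protein gene beside ERBB2, was at 22915, 16584 and 17906. IKZF3, a lymphocyte factor, had 9, 28 and 20 reads, and ZPBP2, a sperm gene, had none. GSDMB, a gasdermin, stood at 23686, 17205 and 19993, whereas its paralog GSDMA had no read. ORMDL3, a regulator of sphingolipid synthesis, was at 11768, 10629.9 and 7934, LRRC3C at 0, and PSMD3, a proteasome subunit, at 34069, 32078 and 28699. CSF3, the granulocyte growth factor, had 16 reads. Farther out MED24 was at 10183, CDC6 of replication origins at 12042 and the topoisomerase TOP2A at 33078, while FBXO47 had no read. High and silent genes thus alternated in the same stretch, and ERBB2 exceeded every neighbour within 10 places in every library.

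**Figure D4:**
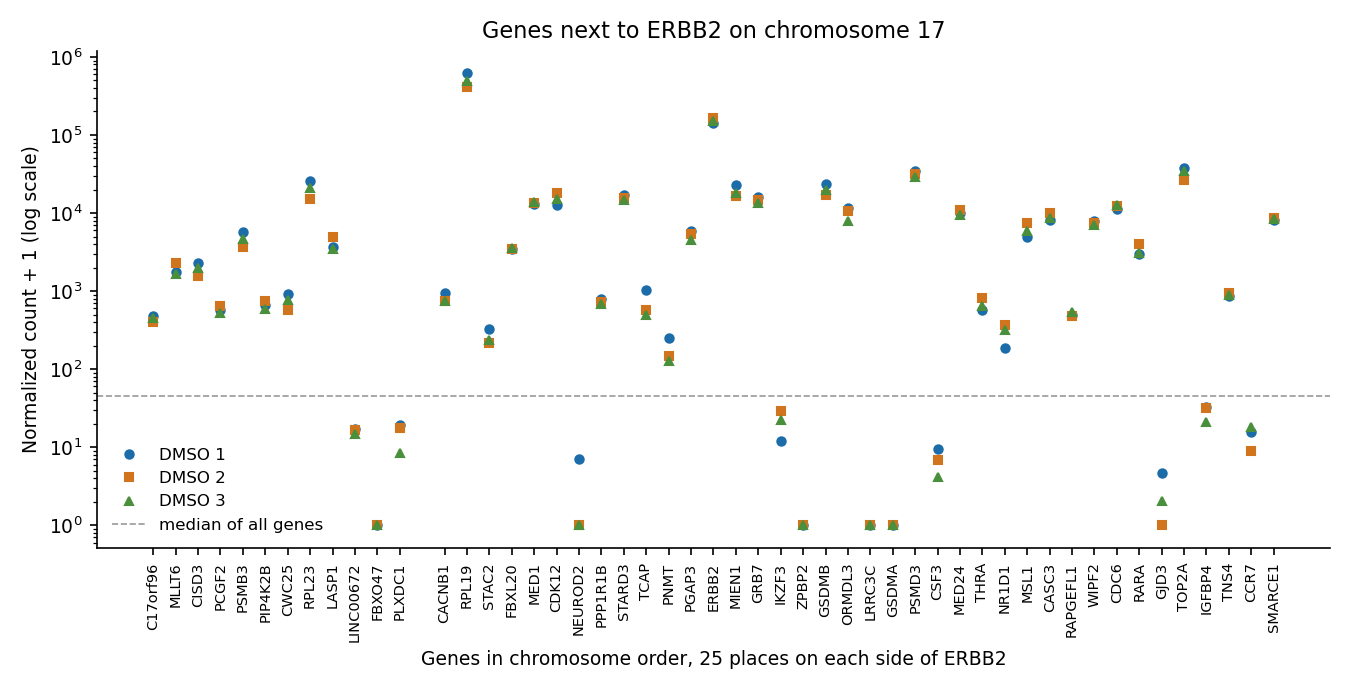
Normalized count plus 1 (vertical axis, log scale) of genes up to 25 places on each side of ERBB2 in chromosome order (1 place is left blank), with 1 symbol per DMSO library and a dashed line at the median of all genes. RPL19 and ERBB2 are the highest, and FBXO47, ZPBP2, LRRC3C and GSDMA are at 0 in all libraries.

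As a description of the stretch, the median level was taken over every run of 11 neighbouring genes in the genome (17569 runs, which overlap and are not independent). The median of these medians was 207, and 1% of them were above 2788. The highest run of all, with a median of 13452, ran from MED1 to GRB7 and held ERBB2. The next 4, equal at 10111, lay between STARD3 and MED24. The run centred on ERBB2 itself had a median of 5292 and was at rank 21. Runs on chromosome 11 near RPLP2 lay between these, at ranks 6 and 7. Gene copy number was not measured in these files, and its part in the levels was not tested.

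The luminal programme was broadly present. Of 31 luminal mammary genes, 26 (83.9%) were above 100 in every library, against 44.0% of all genes and 52.9% of coding genes, and the median was 76.3 TPM. XBP1, a factor of secretory cells, stood at 541, 819 and 738 TPM. The surface protein CD24 was at 527, 624 and 649, the tight junction gene CLDN7 at 540.5, 589.6 and 535 and SPDEF at 461, 477 and 431. The adhesion molecule EPCAM was at 314 ± 47.2, the secretory protein AGR2 at 274 ± 16.9 and the epithelial factor ELF3 at 172 ± 18.6. Of the core luminal factors, TFAP2C was at 160.0 ± 28.6, GATA3 at 93.3 ± 7.36, TFAP2A at 90.6 ± 10.7, TRPS1 at 76.3 ± 9.72 and the pioneer factor FOXA1 at 74.5 ± 25.2. The members in this list were unequal. GRHL2 was at 9.65 ± 3.73, KLF5 at 5.08 ± 0.703, and ELF5, a factor of milk-producing progenitors, at 2.35 ± 0.841. TFF1, a target of the oestrogen receptor, was at 14.6 ± 1.76. AGR3 had 16 reads and ANKRD30A, a breast differentiation antigen, had 13.

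Keratins gave the clearest lineage pattern. KRT19 stood at 13289.9, 11542 and 12124 TPM, KRT8 at 5768, 5948 and 5605, KRT18 at 5200.3, 4625 and 4869 and KRT7 at 4184, 4002 and 3980.3, a fixed order with no overlap between neighbours. KRT8 pairs with KRT18 in filaments, and the ratio per length was 1.11, 1.29 and 1.15. KRT80 was at 55.3 ± 15.2, KRT23 at 1.04 ± 0.345, and KRT20, of gut and urothelium, had no read. Of the basal pair, KRT5 had 34, 27 and 9 reads, or 0.667 ± 0.363 TPM, and KRT14 had 1 read in all. KRT8 and KRT18 together exceeded KRT5 and KRT14 together by 14.15 ± 1.02 on the log2 scale, a ratio whose lower member rests on 71 reads. Not all keratins of stratified or hair tissue were low. KRT4, of non-keratinizing mucosa, was at 596, 758 and 604, KRT10 at 139 ± 8.40 and KRT15 at 17.03 ± 0.302. KRT81, a hair keratin outside the lists and named after its values were seen, was at 1000.4, 848 and 771. KRT13 and KRT17 were at 8.98 and 7.32, and KRT6C, KRT12, KRT76 and KRT77 had no read. Keratin genes are similar in sequence, so low values beside abundant paralogs are uncertain.

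Cell junction genes were split. Of 18 tight junction and desmosome genes, 16 (88.9%) were above 100 in every library, against 44.0% of all genes and 52.9% of coding genes. PKP3, a desmosome plaque gene, stood at 397 ± 59.3 TPM, CLDN4 at 265 ± 32.4, CLDN3 at 137 ± 10.4, the junction molecule F11R at 91.3 ± 7.19 and desmoplakin (DSP) at 26.7 ± 6.70. OCLN was at 1.34 ± 0.776 and CLDN1 at 0.706 ± 0.255. The classical cadherins were close to silent. CDH1, the E-cadherin that holds epithelial cells together, had 2, 0 and 0 reads in DMSO 1, 2 and 3. CDH3 of basal cells had no read, and CDH2, the N-cadherin of mesenchymal cells, had 3, 10 and 4. CDH4, CDH6, CDH11 and CDH13 had 3, 1, 7 and 3 reads in all. CDH5, of endothelium, was the exception at 1.83, 3.33 and 1.83 TPM. The intracellular partners of cadherins were still expressed: plakoglobin (JUP) at 348, 496 and 397, alpha-catenin (CTNNA1) at 200.1, 363 and 304 and beta-catenin (CTNNB1) at 39.8, 68.6 and 61.5. CTNND1, the p120 catenin, had 85 reads. That gene lies inside an annotated read-through gene, TMX2-CTNND1, and whether reads in both were discarded is not stated, so its value is uncertain.

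**Figure D5:**
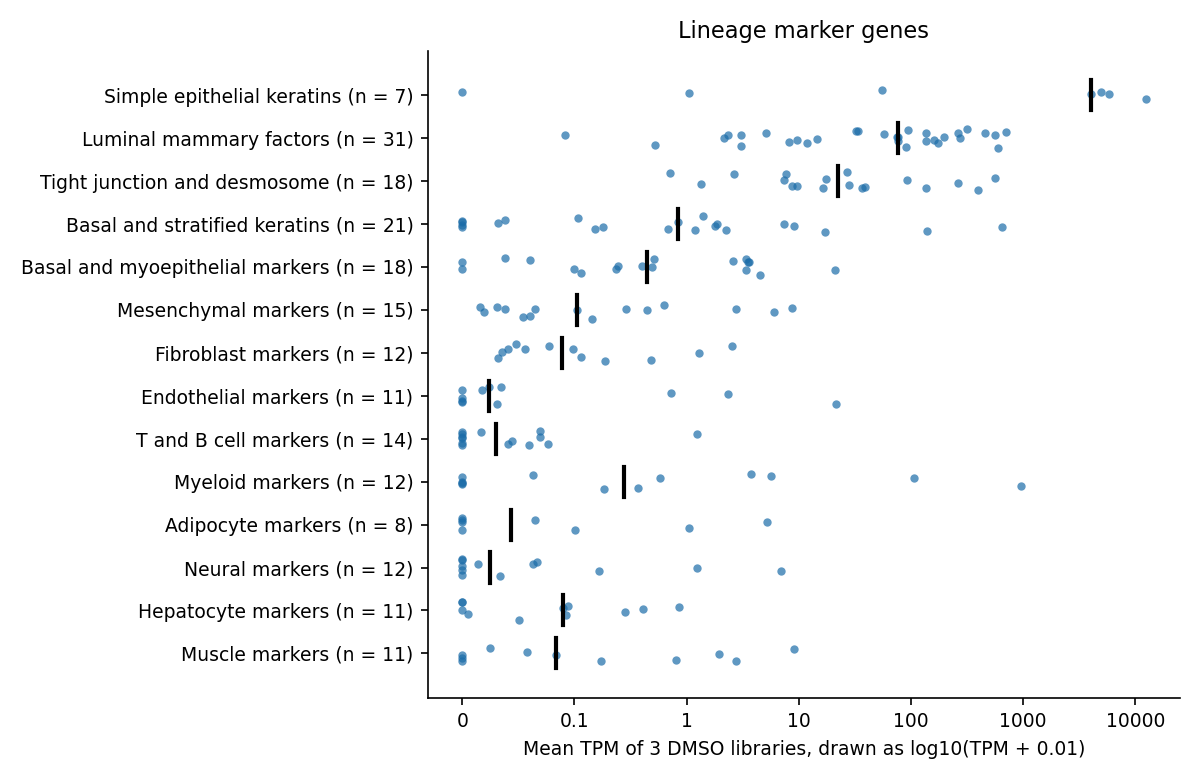
Mean TPM over 3 DMSO libraries (horizontal axis, drawn as log10 of TPM + 0.01) of each marker gene in 14 lists, with n genes in each, 1 point per gene and a black bar at the list's median. The bar of the simple epithelial keratins lies at 4055 TPM and that of the luminal factors at 76.3, while those of the endothelial, lymphocyte and neural lists lie near 0.

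Basal and mesenchymal genes were mostly low. Of 18 basal and myoepithelial markers, 6 (33.3%) were above 100 in every library, against 44.0% of all genes and 52.9% of coding genes. Their median was 0.432 TPM, against 2.01 over all genes and 3.41 over coding genes. ITGB4, an integrin of the basement membrane also made by luminal tumours, was highest at 21.2 ± 4.91 TPM. Smooth muscle actin (ACTA2) was at 3.57 ± 0.765 and TAGLN at 3.52 ± 0.715. TP63, the basal master factor, had 9, 10 and 2 reads, SNAI2 had 3 in all, and CNN1 and CDH3 had none. Of 15 mesenchymal markers 2 (13.3%) were above 100, below the 44.0% of all genes and the 52.9% of coding genes. Fibronectin (FN1) stood at 5.67, 11.8 and 8.48 and vimentin (VIM) at 5.14, 8.79 and 3.99, both highest in DMSO 2. SNAI1 was at 2.77 ± 0.786 and MMP2 at 0.621 ± 0.468, whereas ZEB1, TWIST1 and PRRX1 had 1 read each and ZEB2 had 4.

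Markers of other cell types served to check for foreign cells, which a pure line should lack. For every list here, the share above 100 in every library was 44.0% over all genes and 52.9% over coding genes. Of 12 fibroblast genes 2 (16.7%, against 44.0% of all genes) were above 100, COL1A1 at 2.53 ± 1.10 TPM and COL5A1 at 1.29 ± 0.601, with summed levels of 3.38 to 6.89 TPM by library. DCN and LUM, which define fibroblasts, had 6 and 2 reads. Of 11 endothelial genes 2 were above 100, ESAM at 21.4 ± 2.15 and CDH5, and the list summed to 21.5 to 27.2 TPM. PECAM1 had 2 reads, and TIE1, CLDN5, EMCN and ERG had none. None of 14 T and B cell genes was above 100, and they summed to 1.27 to 1.63 TPM, with PTPRC at 1 read and CD3D, CD3E, CD2, CD8A, CD8B and GZMB at 0. Of 12 myeloid markers 4 (33.3%) were above 100 in every library, with summed levels of 891 to 1245 TPM. S100A9 stood at 1117, 786 and 960.1 TPM and S100A8 at 118, 92.4 and 105, both also made by epithelial cells. The lysosomal protein gene CD68 was at 4.29, 7.31 and 5.28 and CSF1R, the receptor of a macrophage growth factor, at 3.54, 4.45 and 3.23, while LYZ, CD163, FCGR3A and TYROBP had no read. Of 8 adipocyte markers 1 was above 100, PPARG at 5.18 ± 1.07 with PLIN1 at 1.04 ± 0.362 and with LEP, CIDEC, FABP4 and LPL at 0. Of 12 neural markers 1 was above 100, TUBB3 at 6.94 ± 1.73 with SYP at 1.22 ± 0.130 and with NEFL, NEFM, OLIG2, SOX2 and ELAVL4 at 0. No gene of the hepatocyte and muscle lists was above 100 in every library, although TCAP, a muscle gene outside the lists, was. SERPINA1 was highest of the first at 0.839 ± 0.174 and TNNI2 of the second at 9.09 ± 0.894. ALB, FGA and CYP3A4, and MYH1, ACTC1 and MYOD1, had no read.

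PRC2, the target complex of GSK126, places the repressive mark H3K27me3 on histones. In these vehicle-treated cells 10 of its 11 genes (90.9%) were above 100 in every library, against 44.0% of all genes and 52.9% of coding genes. The catalytic subunit EZH2 stood at 33.5, 44.7 and 39.9 TPM and its paralog EZH1 at 1.79, 3.12 and 2.46, and EZH2 was 18.7, 14.4 and 16.2 times EZH1 per length. The core subunits EED, at 21.6, 33.5 and 25.3, and SUZ12, at 10.7, 13.1 and 16.3, were below EZH2 in every library. The histone-binding subunits RBBP7 and RBBP4, shared with other complexes, were at 120.2 ± 25.2 and 18.4 ± 3.38. Accessory subunits were MTF2 at 18.2 ± 1.3, JARID2 at 15.3 ± 1.69, PHF1 at 11.4 ± 2.90 and AEBP2 at 5.00 ± 1.39. PHF19 was the lowest at 0.404 ± 0.0824.

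Most genes of the cell cycle were well read. Of 22 genes 18 (81.8%) were above 100 in every library, against 44.0% of all genes and 52.9% of coding genes. PCNA, the replication clamp, stood at 527 ± 75.6 TPM, TOP2A at 379 ± 28.5, CDK1 at 169 ± 39.0 and MKI67 at 42.3 ± 3.67. Of the D cyclins CCND1 was at 136, 155 and 145 and CCND3 at 99.6, 117 and 104, with no overlap, while CCND2 had 3 reads. CDK4 at 130.4 ± 11.6 was above CDK6 at 2.35 ± 0.533 in every library. CCNE1 was at 44.0 ± 3.49 and CCNE2 at 3.63 ± 1.36. MYC stood at 111, 226 and 161, highest in DMSO 2, and MYCN had 2 reads. In the tumour suppressor list 22 of 23 genes were above 100 in every library, against 52.9% of coding genes. CDKN2A was highest at 66.6 ± 8.58, followed by STK11 at 49.8 ± 4.05, VHL at 40.6 ± 3.90 and KEAP1 at 36.5 ± 4.11. RB1 was at 6.70 ± 2.65, BRCA1 at 3.61 ± 0.283 and BRCA2 at 0.517 ± 0.0276. A level says nothing of mutations in these genes, which were not read here.

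Metabolic genes were uneven among paralogs. In glycolysis 18 of 22 genes (81.8%) were above 100 in every library, against 52.9% of coding genes. The list summed to 24917 ± 1028 TPM. After GAPDH came ALDOA at 4729 ± 159, ENO1 at 2864 ± 65.8 and TPI1 at 1904 ± 88.1. The aldolase ALDOC was at 65.9 ± 2.13, and the enolase ENO2 had 20 reads. LDHA at 1265 ± 193 and LDHB at 948 ± 91.2, the lactate dehydrogenase subunits, were both abundant, with LDHA higher in every library. The glucose transporter SLC2A1 was at 159 ± 39.5 and SLC2A3 at 0.226 ± 0.202. In fatty acid synthesis 14 of 16 genes (87.5%) were above 100, against the same 52.9% of coding genes. FASN stood at 548, 1077 and 659 TPM, and DMSO 2 lay well above the others. ELOVL1 followed at 287 ± 33.6, then ACLY at 218 ± 61.4, the desaturase SCD at 199.6 ± 40.7 and the regulator SREBF1 at 199 ± 51.2. ACACA, which makes malonyl-CoA for FASN, was at 8.37 ± 3.50, and THRSP at 15.4 ± 2.32. FABP5 had 20 reads and ACSL4 had 8.

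Antigen presentation genes of class I were present with low heavy chains. B2M, the shared light chain, stood at 303, 387 and 385 TPM and HLA-E at 173, 180.2 and 160.0. HLA-B was at 6.07, 5.64 and 4.35 and HLA-C at 5.06, 6.17 and 5.66, which overlapped each other and lay below B2M in every library. The peptide transporters TAP1 and TAP2 were at 13.5 ± 1.91 and 27.9 ± 7.64, the immunoproteasome genes PSMB8 and PSMB9 at 8.70 ± 1.18 and 1.34 ± 0.694, and the regulator NLRC5 at 0.139 ± 0.102. HLA genes are polymorphic and alike, so reads that differ from the reference or match several genes may be missing from these values. Of 13 class II genes, 1 was above 100, against 52.9% of coding genes: HLA-DMA at 18.9, 21.3 and 18.1. CD74 had 16 reads, HLA-DRA had 4, and CIITA, the master regulator of the class, HLA-DRB5, HLA-DPB1 and HLA-DOA had none.

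Cancer testis antigens, normally restricted to germ cells, were expressed by a few members. Of 18 genes 5 (27.8%) were above 100 in every library, against 44.0% of all genes and 52.9% of coding genes. CTAG2 stood at 620.3, 471 and 473 TPM, LAGE3, which is also made in other tissues, at 333, 268 and 278, MAGEA3 at 72.3, 112 and 92.0, MAGEA6 at 53.2, 83.5 and 62.5 and MAGEA12 at 20.9, 28.0 and 27.4. MAGEA3 and MAGEA6 are near-identical, so reads can be split between them. PRAME was at 0.777 ± 0.206, MAGEA4 had 13 reads, and CTCFL had none. HOX genes, which hold positional identity, were above 10 normalized counts in every library in only 1 of their 4 clusters. Those above 10, 8 of the 34 in the table, were all HOXC genes. Over all genes, 55.1% were above 10 in every library. HOXC13 was at 20.6, 28.2 and 30.3 TPM, HOXC9 at 28.6, 18.4 and 22.5, HOXC6 at 7.34, 9.34 and 7.69, HOXC10 at 3.39, 8.59 and 4.45 and HOXC8 at 5.12, 2.49 and 3.22. HOXC4, HOXC5 and HOXC11 lay between 1.53 and 3.33, and HOXC12 had 2 reads. The HOXA, HOXB and HOXD genes had at most 7 reads each over the 3 libraries, and 20 of the 34 HOX genes had none. HOXA10 overlaps the annotated read-through gene HOXA10-HOXA9, which is not in the table. Its low value is therefore uncertain, as for CTNND1.

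Genes with no read in any DMSO library numbered 4998, of which 3170 were protein coding. Every gene of the table had a read in at least 1 of the 12 libraries, so these are genes that were read in another library. For 2307 of them that was only the first library of the combined treatment, which had the lowest depth of the series (17.7 M gene reads) and the most genes with reads (21669). The other 2691 had a read in a further library. Genes missing from the table were not analysed here. A gene at 0 is therefore not detected at this depth, which bounds it at 0.0383 reads per M gene reads over the group.

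Genes of the table with no DMSO read were frequent in some families, counted here after the values were seen. Family members read in none of the 12 libraries are not in the table and not counted. The shares can also include genes that only the first library of the combined treatment read, so they depend partly on that library. Of 17873 coding genes, 17.7% had no read and 52.9% were above 100 in every library. Among olfactory receptors, 183 of 194 had no read and none reached 100. Keratin-associated proteins of hair had no read in 36 of 44 genes, interferons in 8 of 10, beta defensins in 6 of 8 and taste receptors in 16 of 23. Of the growth factor families, FGF ligands had no read in 9 of 18 and Wnt ligands in 7 of 18. At the other end, all 37 subunits of NADH dehydrogenase and all 12 of RNA polymerase II were above 100 in every library, as were 76 of 77 mitochondrial ribosomal proteins, 40 of 43 initiation factors and 36 of 39 proteasome subunits. Frequencies between these were found for solute carriers (145 of 332 above 100), RAB GTPases (43 of 60) and ZNF zinc finger genes (229 of 500).

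Transcript features differed along the levels. The median transcript was 2.28 kb for coding genes with no read, was 3.56 kb between 100 and 1000 normalized counts, and was 2.15 kb at 10000 and above. The median coding length was 1.14, 1.5 and 0.93 kb in the same classes. Median GC content was 48.5% with no read, 47.0% between 100 and 1000 and 53.2% at the top. Normalized counts grow with length, so a class by count is not a class by number of molecules. CG content of promoters by class is not given, because the check is void: 79.98% of coding genes (14294 of 17873), and 74.7% to 78.0% in the classes under 100, had a promoter in the RefSeq table, below the 80% needed.

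The spread between libraries set how finely genes can be ordered. Among 4977 genes with a mean of at least 1000 normalized counts, leaving out 4 with provisional LOC symbols and 7 whose symbols had turned into dates, the median coefficient of variation was 12.6%, and 1805 of them (36.3%) were under 10%. By class, the median SD on the log2(value + 1) scale was 0.20 at 10000 normalized counts and above, 0.18 for 1000 to 10000, 0.21 for 100 to 1000, 0.46 for 10 to 100 and 0.95 under 10. The spread was thus similar in the 3 classes from 100 upwards and wider below 100. The 10 genes with the widest range among those with a mean of at least 50 all had low means. The Wnt receptor FZD6 was at 9.81, 87.0 and 91.8, LRRC37A2 at 12.3, 66.2 and 74.7, ZNF235 at 22.1, 77.1 and 109, ZNF41 at 17.2, 81.0 and 74.7 and the ETS repressor ETV3 at 23.3, 99.8 and 76.8, each lowest in DMSO 1. SMG1P1 was at 93.2, 14.8 and 42.7, UBE2Q2P1 at 129, 27.7 and 44.8 and TNFRSF18 at 105, 43.5 and 23.5, each highest in DMSO 1. NPFF, at 68.6, 19.8 and 86.4, and LINC01239, at 163, 38.5 and 130.2, were lowest in DMSO 2. None of the 5 marker genes was among them, which says little of their spread, since the 10 are all genes of low mean.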

How the data were processed

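Messenger RNA was read in 12 libraries, 3 of them from DMSO-treated SKBR3 cells. The aligner STAR, the genome build hg19 and DESeq2 are named in the submitters' processing notes. Their versions, the counter, its annotation and any filter are not given in the sources used here. The deposited signal per gene is, per the file's values, a read count the authors divided by a size factor per library. All values (100%, within 0.01) were whole multiples of the smallest value above 0, so reads were recovered from them. Of 22256 rows, 86 spike-ins were left out, and 27 genes whose symbols had turned into dates are not named. Genes are given by symbol, with no coordinates in the file.

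TPM used GENCODE 29 lengths of the principal transcript (at least 0.2 kb), an annotation of another build matched by symbol: 19976 genes, holding 99.4% of reads. Gene order is from the starts of coding genes in RefSeq. RefSeq names matched 21107 genes, 1502 of them by an older symbol. Where counting is not stated to use strand, overlapping genes may share reads. Depth was 25.4 to 26.8 M gene reads. A count of 0 was bounded by 3 reads over the 3 libraries, for counting error only.

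With 1 group there was no contrast and no test. The text names the 25 genes highest by normalized count, the 15 highest per kilobase, the 5 markers, all members of the ERBB, simple keratin, cadherin and PRC2 lists, for other lists the 4 highest members, known ones and those at 0, the 10 neighbours on each side of ERBB2 and the 10 most variable genes. It gives a part of these, and some members are not reported here. Members and lists (31 lists, 586 entries) were chosen with earlier results of these data known. Alternatives were other thresholds, scalings (TMM from edgeR 4.0.16 in R 4.3.3), lengths, windows and leaving out each library. The procedure, in Python 3.11.15 with numpy 2.4.6 and pandas 2.3.3, was tested on simulated data. All 15 mitochondrial genes of the lists are not analysed here.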

Additional observations from a re-analysis of the deposited data

How the results depend on the processing

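Of 48 alternatives to the main values, 40 stayed within 1 SD, or for counts within 1.5 times. Part of the 40 was fixed in advance, since leaving out 1 of 3 libraries cannot shift a mean by 1 SD. This holds for the ERBB2 share, ERBB2 over ERBB3 and the keratin ratio. Spike-in reads were likewise too few to move the shares by 1 SD. As a share of level per kilobase in place of reads, the 10 highest genes held 12.7% and ERBB2 0.229%. Without length correction ERBB2 over ERBB3 was 27.9, and with coding length it was 29.9. The percentile of the run around ERBB2 was 99.89 among runs of 11 genes. It was 99.97 for 5 genes, 99.84 for 21 genes, 99.93 among genes with a mean of at least 10 and, added after the data were seen, 99.78 on the TPM scale. The median SD between libraries was 0.23 (log2) over genes with a mean of at least 10, and from 0.148 without DMSO 1 to 0.235 when 1 library was left out. Genes with a read in every library numbered 12196 at 10 reads and 17172 at 1 read in any library. Of 30 lists, 10 changed their count above 100 by more than 1.5 times under some alternative. A total with mitochondrial genes left out was not run, since none are among the genes analysed, and the other promoter window was not run because the check by class was void. Depth limits the order of genes under about 10 reads. No paired analysis was possible because only 1 group was described and no result comes from a test.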

Other observations

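Noncoding RNAs other than MALAT1 and H19 were also abundant. NEAT1, the scaffold RNA of paraspeckles, stood at 12006, 13662 and 11665 normalized counts and, being long, at 36.9 ± 7.68 TPM. LRRC75A-AS1 was at 536 ± 23.4 TPM. DSCAM-AS1, an antisense RNA known from luminal breast cancers, was at 322, 231 and 285 TPM, highest in DMSO 1. GAS5, ZFAS1, DANCR and SNHG1, hosts of small nucleolar RNAs or related to them, stood at 333 ± 13.0, 292 ± 37.9, 266 ± 6.58 and 125 ± 16.5. Without strand information, values of antisense genes cannot be told apart from those of genes they overlap.

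Further families were unequal among their members, and these were named after their values were seen. In the claudin family 5 of 21 genes were above 100 in every library, against 52.9% of coding genes. CLDN7, CLDN4 and CLDN3 led the family. Of 52 cytochromes P450, 7 were above 100 and 22 had no read, against 52.9% and 17.7% of coding genes. The sterol demethylase CYP51A1 was the highest at 91.7 ± 16.5 TPM. Wnt ligands were led by WNT7B at 47.5 ± 4.96 TPM and potassium channels by KCNN4 at 167 ± 10.3. Per length, mucins were led by MUC1 at 77.3 ± 3.81 TPM, on a transcript of 0.859 kb. By normalized count MUC16, with a transcript of 43.8 kb, was higher (1363 against 1007), so the order depends on the lengths used. S100 genes were read in all 17 cases, led by S100A6, and S100A16, S100A14, S100A11 and S100A4 followed at 3092, 2889, 1295 and 1292 TPM.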
